A study of Mus musculus with 8 samples.

Results

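The 10 genes described here encode surface and secreted proteins by which macrophages of the mouse spleen are recognised: Adgre1, Adgre4, Vcam1, Mrc1, Cd163, Siglec1, Siglece, Treml4, Fcna and Cd5l. They were taken by symbol from a table of 55414 gene rows, and all 10 were among the 14004 genes with enough counts to test. Red pulp macrophages had been isolated by flow cytometry from the spleen of wild-type C57BL/6J animals, in 4 libraries 2 h after CLP (cecal ligation and puncture, a sepsis model in which contents of the gut escape through the pierced cecum) and in 4 libraries 2 h after sham surgery. Neither the age of the mice nor the antibodies of the sort were found in the sources used here, and whether the protein of any of these genes served to gate the cells is unknown. Whether the libraries of a group are separate mice is not stated in the labels, and the p-values measure only the spread between libraries, part of which may be technical.

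Red pulp macrophages line the open circulation of the spleen, take up aged red blood cells and return their iron to the blood. Surface proteins set them apart from the marginal zone and marginal metallophilic macrophages that border the white pulp: F4/80 (Adgre1) and VCAM-1 mark the red pulp, and sialoadhesin (Siglec1) is strongest on the metallophilic cells. Several of the proteins are also working receptors, for hemoglobin bound to haptoglobin (CD163), for mannose-ending sugars (the mannose receptor, Mrc1) and for sialic acids (Siglec1 and Siglec-E).

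After CLP the 10 genes moved little, by at most 1.36-fold either way with the trimmed mean of M-values (TMM) scaling and between 0.719-fold and 1.10-fold with library totals. With TMM, 6 of the 10 were higher in CLP (Siglece, Adgre1, Cd5l, Vcam1, Fcna and Adgre4) and 0 were lower at an adjusted p under 0.05 in edgeR's quasi-likelihood test, where 19.8% of all tested genes were called higher and 23.5% lower. With library totals, 0 of the same 10 were higher and 2, Cd163 and Treml4, were lower, where 9.18% of all tested genes were higher and 46% lower. At an unadjusted p under 0.05, 0 members were lower with TMM in edgeR and 0 were higher with library totals, and DESeq2 and limma-voom also called 0 members lower. Cd163, the hemoglobin-haptoglobin receptor, had the lowest fold change of the 10 under either scaling. Its ratio to other members, which no scaling alters, was lower in every CLP library for 8 of the other 9. Set against 992 other abundant genes, by the bound given in the next paragraph, Cd163 was lower in every CLP library for 65.6% and higher for 2.82%. Its lower ratios were thus not particular to the other members. The median log2 fold change of the 10 was 0.27 with TMM and -0.05 with library totals, against -0.05 and -0.37 over all tested genes.

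These are abundant transcripts, and their shifts lay near those of other abundant genes. Among the 993 tested genes with a mean of 200 CPM or more (counts relative to the scaled library total), a bound chosen after the data were seen, 60.2% were called higher and 6.95% lower with TMM, and the median log2 fold change was 0.31. With library totals 30.1% of the 993 were higher and 25.9% lower, with a median of -0.01. The counts of 6 higher in one scaling and 2 lower in the other are thus not larger than the shares among genes of like abundance.

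The scaling factors of the libraries differed between the groups. TMM factors ran between 0.873 and 0.915 in CLP libraries and between 1.08 and 1.15 in sham libraries. The 882 genes called at least 2-fold higher with TMM held 15.4% to 16.7% of all counts in CLP libraries and 4.78% to 6.52% in sham libraries. The direction of that difference is fixed by how these genes were picked. The 50 most abundant genes of each library, picked without regard to group, held 18.6% to 20.4% in CLP libraries. In sham libraries they held 17.6% to 19.1%, a range that overlaps. The median log2 fold change of all genes differed by -0.32 between library totals and TMM. The 10 genes together took 2.43% to 2.94% of a CLP library and 2.60% to 2.95% of a sham library, ranges that overlap. The amount of RNA per cell was not measured in the data used here, so in these bulk samples fewer cells of a type and less RNA per cell cannot be told apart.

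**Figure D1:**
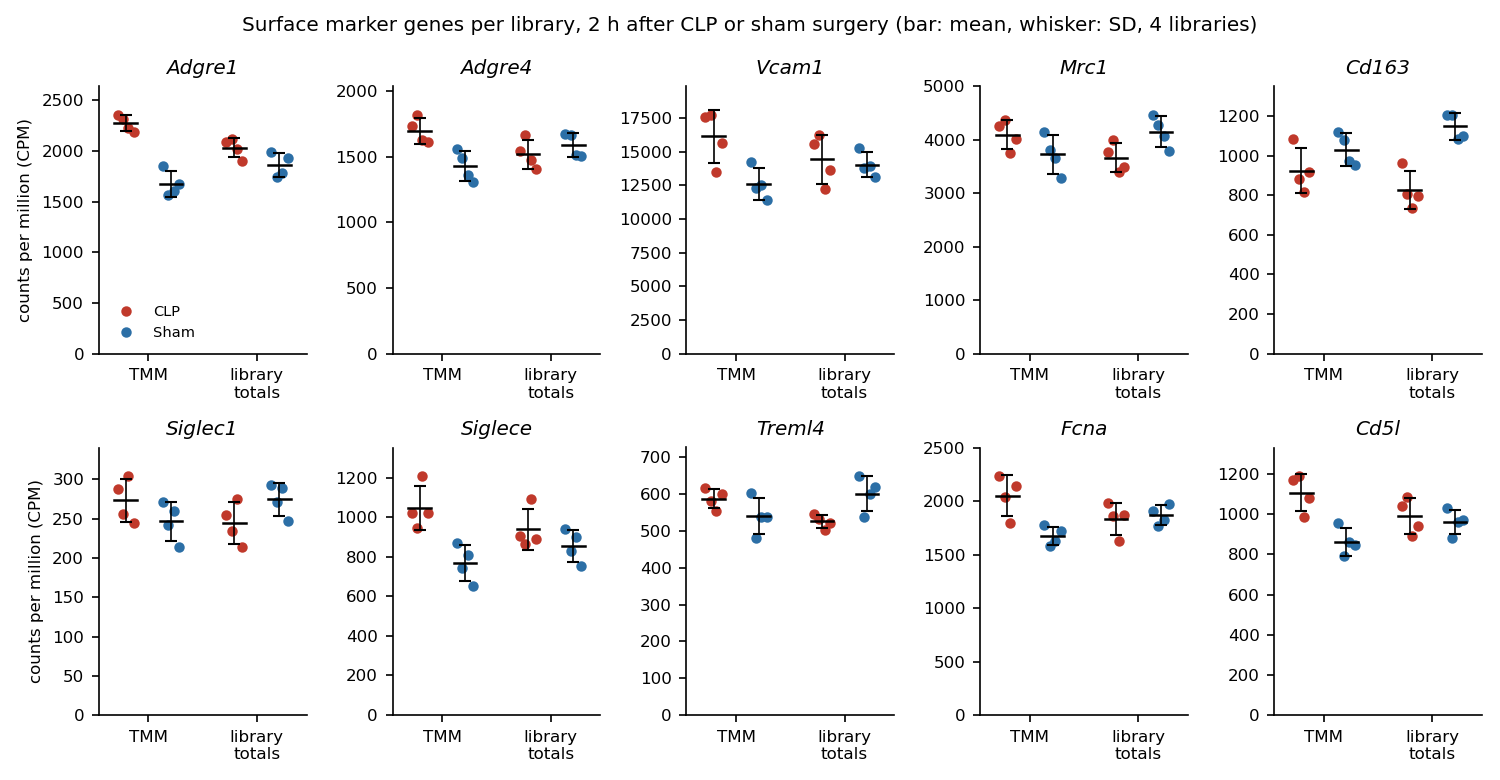
CPM of each of the 10 genes (y axes, from 0) in the 4 CLP (red) and 4 sham (blue) libraries, scaled by TMM at the left of each panel and by library totals at the right. Bars are means and whiskers SD. Adgre1 separates the groups with TMM, with every CLP library above every sham library, and its groups overlap with library totals, whereas Cd163 overlaps with TMM and separates downward with library totals.

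Promoter sequences of 4 members are shown because they hold a motif of a factor of the macrophage or of the early bacterial response, and because Siglece and Cd163 lie at opposite ends of the fold changes. They are the RefSeq sequences of build GRCm38.p6, from 250 bases before to 50 bases after the annotated start, 5′ to 3′ on the gene's strand, and capitals mark a match to a searched motif on either strand.
Siglece, chr7:43660112-43660411, minus strand: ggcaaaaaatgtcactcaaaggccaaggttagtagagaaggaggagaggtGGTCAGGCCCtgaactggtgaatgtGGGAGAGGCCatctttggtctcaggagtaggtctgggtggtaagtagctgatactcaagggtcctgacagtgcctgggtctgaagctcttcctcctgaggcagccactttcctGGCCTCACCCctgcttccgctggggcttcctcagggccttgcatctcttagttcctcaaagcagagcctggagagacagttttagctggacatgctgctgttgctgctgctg
Cd163, chr6:124304401-124304700, plus strand: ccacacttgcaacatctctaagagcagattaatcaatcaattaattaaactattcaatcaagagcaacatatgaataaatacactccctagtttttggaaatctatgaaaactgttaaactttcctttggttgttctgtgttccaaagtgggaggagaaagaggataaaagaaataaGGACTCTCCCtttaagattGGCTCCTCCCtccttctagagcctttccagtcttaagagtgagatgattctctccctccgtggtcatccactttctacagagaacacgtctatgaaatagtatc
Adgre4, chr17:55749734-55750033, plus strand: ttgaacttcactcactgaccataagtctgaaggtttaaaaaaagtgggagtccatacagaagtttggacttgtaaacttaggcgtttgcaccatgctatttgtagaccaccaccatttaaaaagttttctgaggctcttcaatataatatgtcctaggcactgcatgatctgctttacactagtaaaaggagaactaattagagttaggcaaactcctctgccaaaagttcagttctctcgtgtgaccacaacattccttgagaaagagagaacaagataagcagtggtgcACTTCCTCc
Fcna, chr2:25627925-25628224, minus strand: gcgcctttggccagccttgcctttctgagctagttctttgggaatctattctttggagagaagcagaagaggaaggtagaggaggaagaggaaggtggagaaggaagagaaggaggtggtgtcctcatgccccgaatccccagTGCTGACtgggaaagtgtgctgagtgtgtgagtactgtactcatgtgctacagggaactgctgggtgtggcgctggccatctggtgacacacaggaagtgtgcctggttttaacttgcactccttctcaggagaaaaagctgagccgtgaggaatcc

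Of the 10 genes, 7 matched this promoter table by symbol: the 4 shown, Mrc1, Treml4 and Cd5l. The loose NF-kB pattern, GGG and CC with any 5 bases between them, was in the windows of Siglece (3 matches), Cd163 (2 matches) and Mrc1, and in 50.8% of all 32851 promoters of the table. A stricter NF-kB pattern was in 0 of the 7, against 0.411% of all promoters. The core GAGGAAGT, bound by PU.1 and its relative Spi-C, was in the Adgre4 window on the opposite strand, 42 bases after the start, and in 3.20% of all promoters. The MAF recognition core TGCTGAC was in the Fcna window, 107 bases before the start, and in 4.67% of all promoters. The AP-1 pattern TGANTCA (7.81% of all promoters) and the E-box CACGTG (7.15%) were in 0 of the 7. None of the marked matches overlapped another, and a match describes letters only.

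The adhesion GPCRs Adgre1 and Adgre4 were higher in CLP with TMM and did not pass with library totals. Adgre1 encodes F4/80, the classical antigen of mouse tissue macrophages. It was at 2358, 2314, 2228 and 2185 CPM in CLP replicates 1 to 4, against 1847, 1562, 1601 and 1673 CPM in sham replicates 1 to 4 (TMM). Every CLP library lay above every sham library, and the difference of 0.44 on the log2 scale (SE 0.08, edgeR's adjusted p = 0.000829) kept its call when any single library was left out (adjusted p at most 0.00541). With library totals it was 0.13 (adjusted p = 0.139), and the groups overlapped.

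Adgre4, an F4/80-like receptor also found on monocytes that patrol the vessel wall, was at 1738, 1822, 1626 and 1612 CPM in CLP, against 1559, 1489.5, 1359 and 1309 CPM in sham. The groups did not overlap, and the log2 fold change was 0.25 (SE 0.08, adjusted p = 0.0288). With library totals it turned to -0.07 (adjusted p = 0.467). Leaving out CLP replicate 1, CLP replicate 2, Sham replicate 3 or Sham replicate 4 ended its TMM call (highest adjusted p = 0.0761), as did upper quartile factors (0.102) and a fit with 1 surrogate variable (0.0678).

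Vcam1 encodes the adhesion molecule that binds integrin α4β1 and was the most abundant of the 10. Its level was 17588, 17755, 13524 and 15683 CPM in CLP, against 14219.9, 12312, 12524 and 11387 CPM in sham. CLP replicate 3 lay below the highest sham library, replicate 1, so the groups overlapped although the fit called the difference with TMM (log2 fold change 0.36, adjusted p = 0.0196). Leaving out CLP replicate 1, CLP replicate 2 or Sham replicate 2 ended the call (highest adjusted p = 0.0612), as did upper quartile factors (0.0542) and 1 surrogate variable (0.0832), and the log2 fold change was 0.04 with library totals.

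The endocytic receptors Mrc1 and Cd163 were not called with TMM, whereas Vcam1 and Adgre1 were called higher. Mrc1, the mannose receptor CD206, was at 4251, 4364, 3753 and 4012 CPM in CLP, against 4149, 3815, 3656 and 3283 CPM in sham. These ranges overlapped widely, and the log2 fold change did not pass with TMM (0.14, adjusted p = 0.251) or, in the other direction, with library totals (-0.18, adjusted p = 0.0676). The call of lower with library totals was reached in 2 of the 8 fits that left out 1 library, those without CLP replicate 2 (adjusted p = 0.0371) and without Sham replicate 4 (adjusted p = 0.0329).

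Cd163, which clears hemoglobin bound to haptoglobin, was at 1085, 884, 815 and 916 CPM in CLP, against 1122, 1079.6, 972 and 954 CPM in sham with TMM. CLP replicate 1 was the only CLP library inside the sham range, and the difference of -0.16 on the log2 scale did not pass (SE 0.10, adjusted p = 0.223). With library totals Cd163 was at 963, 808, 738 and 799 CPM in CLP, against 1208, 1207, 1083 and 1099 CPM in sham, with no overlap, where 42.7% of all tested genes had every CLP library below every sham library. This difference of -0.48 on the log2 scale (SE 0.09, edgeR's adjusted p = 0.000857) was called in all 8 fits that left out 1 library (adjusted p at most 0.00429).

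Of the sialic acid receptors, Siglece was called higher with TMM and Siglec1 was not. Siglece encodes an inhibitory receptor of myeloid cells, and it was at 1019, 948, 1208 and 1022 CPM in CLP, against 872, 744, 808 and 654 CPM in sham. All CLP libraries were higher, by 0.45 on the log2 scale (SE 0.10, adjusted p = 0.00513), a call that ended in the fit with 1 surrogate variable (adjusted p = 0.0988). With library totals it was 0.13 (adjusted p = 0.25) and the groups overlapped.

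Siglec1, sialoadhesin, was the least abundant of the 10, at 288, 257, 304 and 245 CPM in CLP and 272, 242, 259 and 214 CPM in sham. The groups overlapped, and neither the TMM estimate (0.15, adjusted p = 0.243) nor that from library totals (-0.17, adjusted p = 0.133) passed. A call of lower with library totals was reached in 1 of the 8 fits that left out 1 library, that without CLP replicate 3 (adjusted p = 0.0367). The Siglec1 to Siglece ratio of counts was lower in every CLP library, with a difference of -0.30 on the log2 scale. That ratio is independent of the scaling. Siglec1 was likewise lower in every CLP library against 33.4% of the 992 other genes at 200 CPM or more, so nothing is read from that ratio.

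Treml4, a TREM-like receptor that amplifies Toll-like receptor 7 signalling, was at 616, 582, 555 and 599 CPM in CLP, against 603, 481, 539 and 537 CPM in sham with TMM. The CLP libraries fell within or just above the sham range, and the log2 fold change was 0.12 (adjusted p = 0.246). With library totals it was at 546, 531, 503 and 522 CPM in CLP, against 649, 538, 601 and 619 CPM in sham, and was called lower (-0.19, adjusted p = 0.0369) although CLP replicate 1 lay inside the sham range. That call held in 2 of the 8 fits that left out 1 library, those without CLP replicate 1 and without Sham replicate 2.

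Fcna and Cd5l encode secreted proteins of these macrophages. Fcna, ficolin A, is a lectin that starts the complement cascade, and it was at 2236, 2038, 1799.6 and 2147 CPM in CLP, against 1776, 1584, 1634 and 1719 CPM in sham. The groups did not overlap with TMM (log2 fold change 0.29, SE 0.08, adjusted p = 0.0162), but the direction turned with library totals (-0.03, adjusted p = 0.778), and leaving out CLP replicate 1 or Sham replicate 2 ended the TMM call (highest adjusted p = 0.0534), as did 1 surrogate variable (0.0887).

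Cd5l, the scavenger receptor-like protein also called apoptosis inhibitor of macrophages, was at 1171, 1189, 986 and 1081 CPM in CLP, against 957, 789, 861 and 845 CPM in sham. Every CLP library was higher, and the difference of 0.36 on the log2 scale (SE 0.09, adjusted p = 0.00645) was called in every fit that left out 1 library (adjusted p at most 0.0262). With library totals it was 0.04 (adjusted p = 0.673). In all, 5 of the 10 genes (Adgre1, Adgre4, Siglece, Fcna and Cd5l) had every CLP library above every sham library with TMM, where 18.7% of all tested genes and 56.7% of those at 200 CPM or more did. With TMM 0 of the 10 had every CLP library below, where 22.8% of all tested genes and 6.04% of those at 200 CPM or more did. With library totals 0 had every CLP library above (8.62% of all tested genes, 29.9% at 200 CPM or more) and 1, Cd163, had every one below (42.7% and 24.9%).

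**Figure D2:**
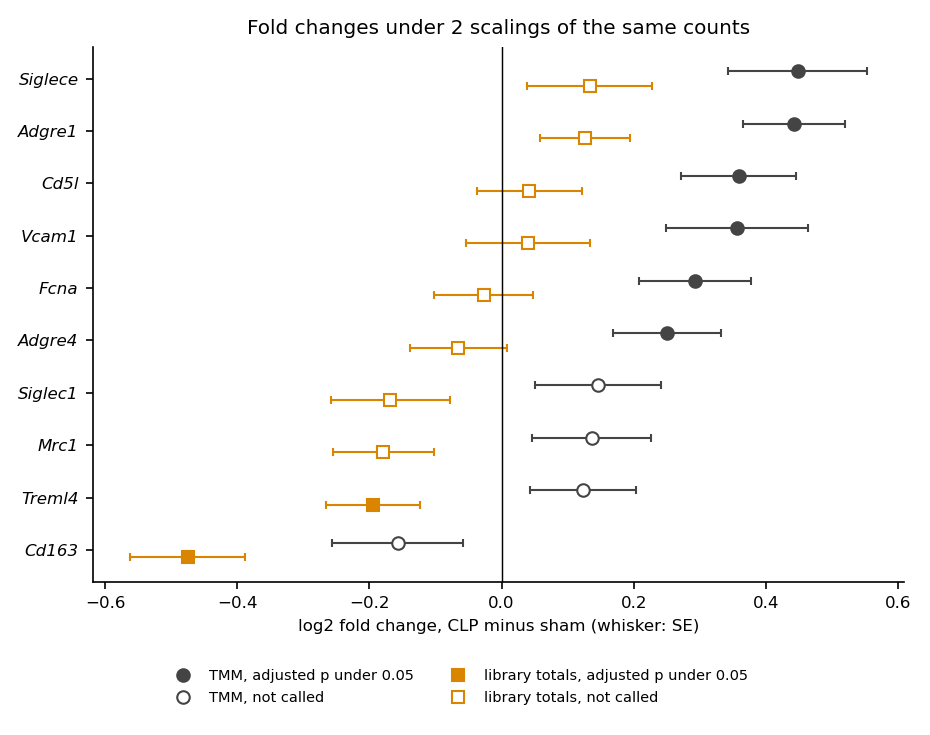
Log2 fold change, CLP minus sham (x axis, whiskers SE), of the 10 genes with TMM (grey circles) and with library totals (orange squares), and filled marks have an adjusted p under 0.05. All 10 shift left by about the same amount with library totals, so that 6 filled marks above 0 become none and Cd163 and Treml4 become called below 0, while the order of the genes stays the same.

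Ratios of 2 genes counted in the same library do not depend on how the library is scaled, and they set Cd163 apart from the rest. Cd163 counts were 6.17%, 4.98%, 6.02% and 5.84% of the Vcam1 counts in CLP libraries, against 7.89%, 8.77%, 7.76% and 8.38% in sham libraries. The mean log2 ratio differed by -0.51, and every CLP library lay below every sham library. Mrc1 did the same, at 24.2% to 27.8% of Vcam1 in CLP and 28.8% to 31.0% in sham. Of the 9 genes set against Vcam1 these 2 were lower in every CLP library and 0 were higher, where 35.5% of all other tested genes were lower and 6.31% higher. Against Adgre1, Cd163, Mrc1 and Treml4 were lower in every CLP library and 0 members were higher, where 50.2% of all other tested genes were lower and 5.82% higher. Among other genes at 200 CPM or more, 35.9% were lower and 18.8% higher against Adgre1.

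Over all 45 pairs of the 10 genes, the CLP and sham libraries did not overlap in 16. Cd163 fell against 8 of the other 9 genes, and Siglec1 was the exception. Its largest differences were against Siglece and Adgre1, both of -0.61 on the log2 scale. Mrc1 fell against 4 others (Adgre1, Vcam1, Cd5l and Adgre4) and Treml4 against 3. Adgre1, Cd5l and Siglece each rose against 3 others and fell against 0. Set against the 992 other genes at 200 CPM or more, Cd163 was lower in every CLP library for 65.6% and higher for 2.82%, while Vcam1 was lower for 20.1% and higher for 19.8%. Mrc1 was lower for 38.3% of the 992, Treml4 for 40.9% and Siglec1 for 33.4%. Adgre1 was higher for 35.9%, Cd5l for 24.6% and Siglece for 24.3%. Beside these shares nothing is read from the counts of pairs for those 6 genes. These counts over pairs share genes and libraries and are a description.

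**Figure D3:**
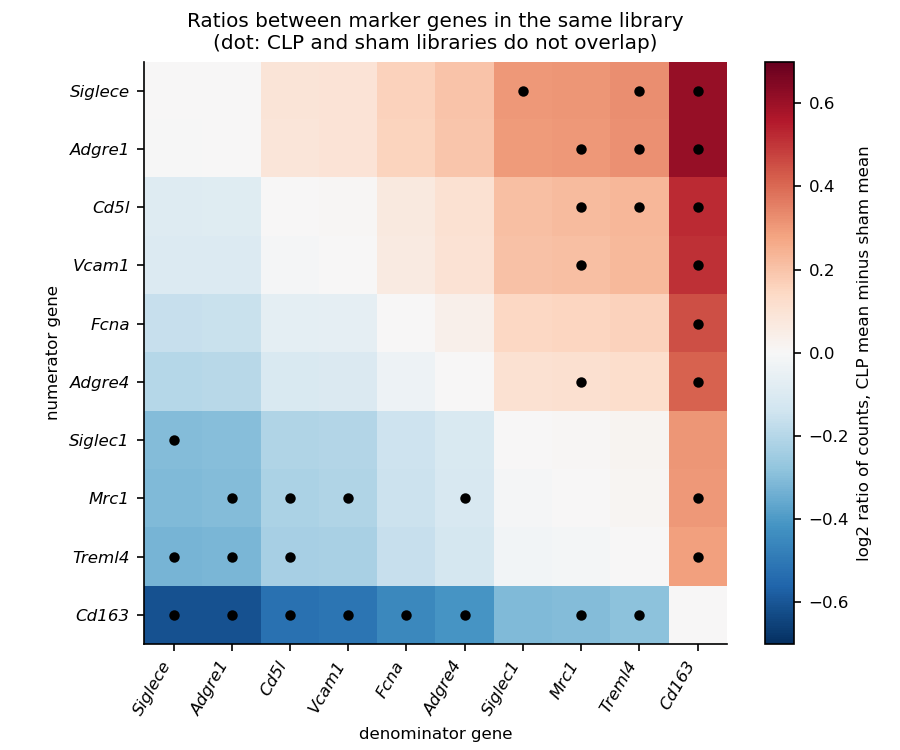
Difference between the CLP mean and the sham mean of the log2 ratio of counts for each pair of genes (numerator in rows, denominator in columns), with a dot where the 4 CLP and 4 sham libraries do not overlap. The bottom row is Cd163, the gene with the lowest fold change, whose mean ratio is therefore lower in CLP against every other gene. It is lower without overlap against 8 of 9, and none of the dots depends on the scaling.

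Levels are comparable between genes only per length of transcript. Per kilobase of annotated exon and with TMM, Vcam1 was the highest, at 1819 ± 223 CPM per kb in CLP and 1422 ± 133 in sham (SD, n = 4 each), and Fcna was next at 1496 ± 137 in CLP and 1221 ± 62 in sham. The ranges of these neighbours overlapped in each group, though Vcam1 was above Fcna in all 8 libraries. Adgre1, Mrc1, Siglece, Cd5l and Adgre4 followed between 487 and 701 CPM per kb in CLP and between 409 and 585 in sham, and neighbours in this order overlapped in all cases but Adgre1 above Cd5l in sham. Treml4 (294 ± 13 in CLP, 270 ± 25 in sham), Cd163 (169 ± 21 in CLP, 189 ± 15 in sham) and Siglec1 (38.3 ± 3.8 in CLP, 34.6 ± 3.5 in sham) came last, each with a range apart from its neighbours. Adgre1 was above Mrc1 in all CLP libraries and below it in 3 of 4 sham libraries, a change of order that no scaling alters.

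Among replicates of a group the genes tended to deviate together. Sham replicate 1 was the highest sham library for all 10 genes with TMM and for 9 with library totals. CLP replicate 3 was the lowest CLP library for 6 genes (Vcam1, Cd163, Mrc1, Treml4, Fcna and Cd5l) and the highest for Siglec1 and Siglece. Without Sham replicate 1 the log2 fold change of every gene was larger or, for Cd163, nearer to 0, with Adgre1 at 0.53 and Cd163 at -0.08, and 6 genes were again called higher. Coefficients of variation were 3.47% to 12.4% in CLP and 5.10% to 12.1% in sham. Counting error was at most 1.64%, since the lowest count of any member in any library was 3702, so the spread between libraries was not limited by depth.

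**Figure D4:**
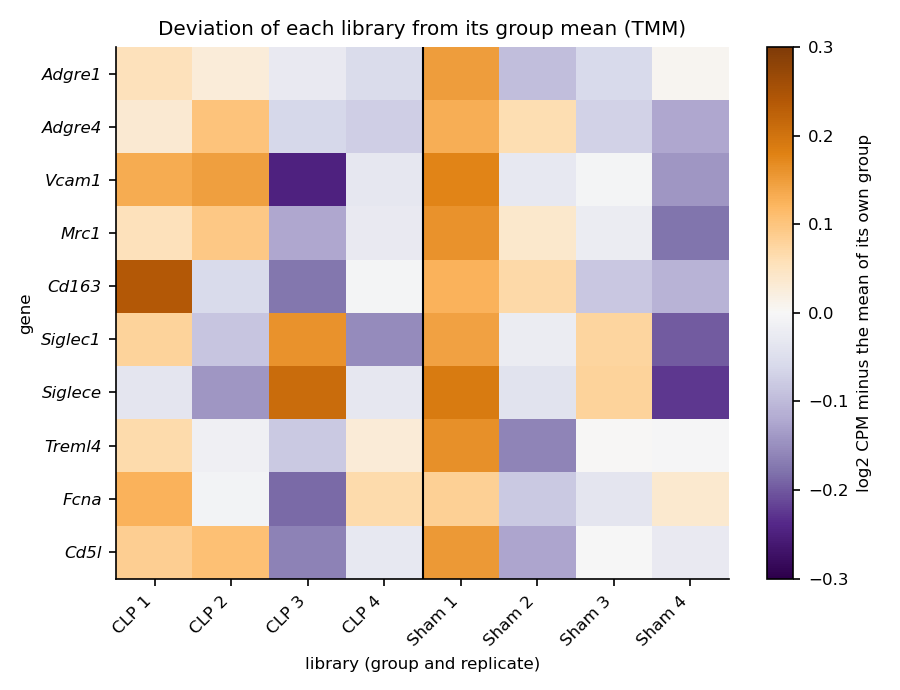
Deviation of log2 CPM (TMM) of each library (columns) from the mean of its own group for each gene (rows), with orange above and purple below the mean. Sham 1 is above its group mean for all 10 genes, and CLP 3 is below for 8 and above for Siglec1 and Siglece.

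For each member the gene with the most similar profile over the 8 libraries was sought among 9042 other named genes averaging 5 CPM or more, by the root mean square difference of centred log2 CPM. Adgre1 was closest to Coro1c (0.03), Adgre4 to Skiv2l (0.04), Vcam1 to Cadm1 (0.04), Cd5l to Laptm5 (0.05), Siglece to Ddx24 (0.05) and Fcna to Rpl8 (0.03). Mrc1 was closest to Ddrgk1 (0.03), Treml4 to Tomm22 (0.03), Siglec1 to Trappc4 (0.04) and Cd163 to Rabggta (0.06). Cadm1, at 917 ± 81 CPM in CLP and 735 ± 62 CPM in sham, had a log2 fold change of 0.32, beside 0.36 for Vcam1. No member was the closest match of another: the nearest pair within the 10 was Vcam1 and Cd5l (0.07), and Cd5l ranked 14th among all genes in nearness to Vcam1. For Cd163 the nearest member, Mrc1, ranked 1513th.

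Ligands, partners and relatives of the members had a median change close to that of the members, with a few larger changes among them. Of 49 listed, 32 were tested, and with TMM 16 were higher and 1 lower (median log2 fold change 0.29, against 0.27 for the 10 members and -0.05 over all tested genes), while with library totals 7 were higher and 5 lower. Of all tested genes 19.8% were higher and 23.5% lower with TMM, and 9.18% higher and 46% lower with library totals. Icam1, an adhesion molecule related to Vcam1 in structure, was the most abundant, at 2270 ± 233 CPM in CLP and 575 ± 148 CPM in sham (log2 fold change 1.98, adjusted p = 3e-05 in edgeR). Trem1, which amplifies inflammatory signals, changed most, at 42.2 ± 10.1 CPM in CLP and 2.84 ± 0.96 CPM in sham (3.90). The integrin subunits of the VCAM-1 receptor, Itga4 and Itgb1, rose by 1.00 and 0.44 with TMM, and Itga4 stayed higher with library totals (0.68) while Itgb1 did not pass (0.12). Adam17, a protease that sheds surface proteins, rose by 0.68 with TMM and 0.36 with library totals. The 1 lower gene was Ptpn6 (-0.33, adjusted p = 0.0106), which encodes the phosphatase SHP-1 that inhibitory siglecs recruit. Haptoglobin (Hp) itself was at 0.253 ± 0.150 CPM in CLP and 0.702 ± 0.389 CPM in sham and was not tested. Itga4, Itgb1, Adam17, Ptpn6 and Hp were named after their values were seen.

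Other genes of red pulp macrophages were called in each direction. Of 36 listed and tested, 18 were higher and 6 lower with TMM (median 0.27), and 9 were higher and 9 lower with library totals. Among all tested genes at 200 CPM or more the shares were 60.2% higher and 6.95% lower with TMM, and 30.1% higher and 25.9% lower with library totals. The list also holds genes below 200 CPM. Over all tested genes 19.8% were higher and 23.5% lower with TMM, and 9.18% higher and 46% lower with library totals. Ctsb, a lysosomal protease and the most abundant, was at 9374 ± 274 CPM in CLP and 8059 ± 436 CPM in sham (0.22 with TMM, adjusted p = 0.0347, but -0.10 with library totals). Id3, an inhibitor of helix-loop-helix factors, changed most, at 19.7 ± 4.5 CPM in CLP and 2.35 ± 0.29 CPM in sham (3.06). Maf, a transcription factor of macrophages, had a log2 fold change of -0.82 with TMM and of -1.14 with library totals, called lower with each, and Spi1, which encodes PU.1, rose by 0.99 with TMM and 0.67 with library totals. Maf and Spi1 were named after their values were seen.

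**Figure D5:**
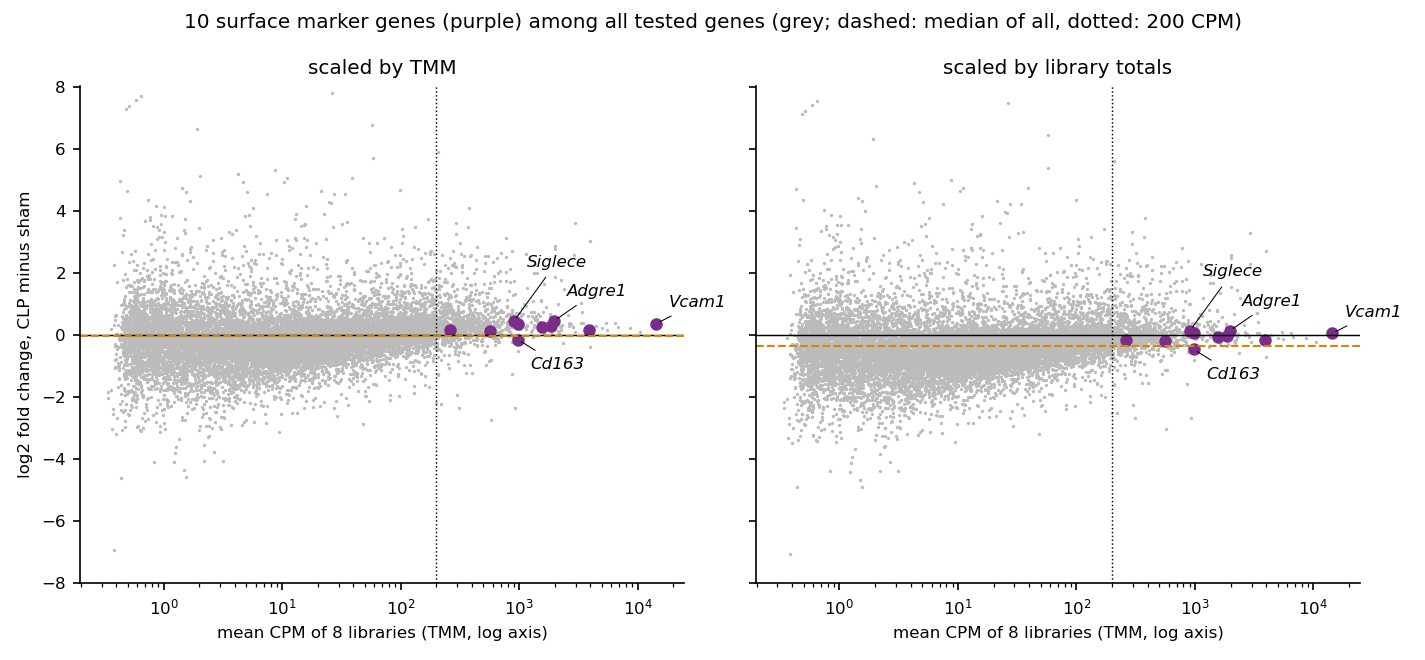
Log2 fold change, CLP minus sham (y axis), against mean CPM (log x axis) for the 14004 tested genes (grey) and the 10 marker genes (purple), with TMM at the left and library totals at the right. With TMM the genes right of the dotted line at 200 CPM have a median of 0.31 and with library totals of -0.01, and Cd163 is the lowest of the 10 in each.

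Markers of other cells were present, some at a CPM above that of Siglec1, the least abundant member. These CPM are not divided by transcript length, so they do not rank the genes. Pecam1 averaged 481 ± 14 CPM in CLP and 435 ± 42 CPM in sham, Stab2 356 ± 37 CPM in CLP and 382 ± 15 CPM in sham, and the erythroid gene Alas2 329 ± 128 CPM in CLP and 111 ± 40 CPM in sham. The endothelial markers Kdr and Emcn averaged at most 0.879 CPM in CLP and 1.01 CPM in sham. Summed levels (TMM) overlapped between groups for 6 endothelial genes (789 to 881 CPM in CLP, 791 to 875 in sham) and 5 of classical monocytes (22.5 to 48.8 in CLP, 26.4 to 36.2 in sham). Most of the endothelial sum was Pecam1 and Stab2. Lyve1, of the same list, was at 9.62 ± 2.05 CPM in CLP and 1.94 ± 0.77 CPM in sham and was called higher under both scalings. With TMM 1 endothelial gene was called higher and 0 lower, and with library totals 1 higher and 2 lower. Sums were higher in every CLP library for 6 erythroid genes (438 to 823 in CLP, 137 to 376 in sham), 8 neutrophil genes (102 to 174 in CLP, 77.4 to 93.0 in sham) 5 platelet genes (17.5 to 22.3 in CLP, 6.62 to 7.78 in sham), 5 fibroblast and stroma genes (13.0 to 17.6 in CLP, 6.87 to 11.3 in sham) and 5 T cell genes (100 to 116 in CLP, 89.1 to 91.8 in sham). They were lower for 5 B cell genes (30.4 to 40.5 in CLP, 43.2 to 47.4 in sham) and 4 NK cell genes (17.8 to 22.4 in CLP, 22.8 to 30.5 in sham). Most of the T cell sum was Cd4 (86.1 ± 11.0 CPM in CLP, 72.9 ± 4.1 CPM in sham), and 0 of the 5 T cell genes were called with TMM in edgeR. Most of the neutrophil sum was Csf3r (110.9 ± 26.2 CPM in CLP, 79.0 ± 5.9 CPM in sham), called higher with TMM but not with library totals. S100a8 and S100a9 were called higher under both scalings. Mmp9 (0.288 CPM in CLP, 0.590 CPM in sham) and Cxcr2 (0.189 CPM in CLP, 0.455 CPM in sham) averaged lower in CLP and were not tested. Among the B cell genes Cd79b alone was called lower with TMM, and among the NK cell genes Ncr1 alone. The part of these other cells in the results was not tested. The sums were taken with TMM only, where 18.7% of all tested genes were higher in every CLP library and 22.8% lower. With library totals 2 erythroid, 2 neutrophil, 3 platelet, 2 fibroblast and stroma and 0 T cell genes were called higher. By that scaling 1 B cell gene and 2 NK cell genes were called lower, where 9.18% of all tested genes were called higher and 46% lower. The marginal zone receptor Marco averaged 228 ± 109 CPM in CLP and 91.3 ± 22.4 CPM in sham. It was called higher with TMM (adjusted p = 0.0219 in edgeR) and with library totals (adjusted p = 0.0482). Cd209b, which is more restricted to that zone, was at 0.580 ± 0.312 CPM in CLP and 0.389 ± 0.198 CPM in sham. The list for the non-classical monocytes, which also carry Adgre4 and Treml4, holds 4 other genes. Nr4a1, an early response gene of many cells, was at 856 ± 94 CPM in CLP and 715 ± 122 CPM in sham and was not called under either scaling, while Ace, Spn and Cx3cr1 averaged at most 7.92 CPM in CLP and 9.47 CPM in sham, none of them called with TMM, though Spn was called lower with library totals. Markers of the labelled cell type were abundant, with Vcam1, Adgre1, Spic, Cd163 and Slc40a1 each averaging at least 925 CPM in CLP and 1032 CPM in sham. Of 11 listed, 6 were called higher and 1 lower with TMM, and 1 higher and 3 lower with library totals. Among tested genes at 200 CPM or more 60.2% were higher and 6.95% lower with TMM, and 30.1% and 25.9% with library totals. Under both scalings Spic was called higher (log2 fold change 0.90 and 0.58) and Slc40a1 lower (-0.40 and -0.72).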

How the data were processed

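The authors deposited whole-number read counts, not normalized, in 1 table of 55414 Ensembl genes by 8 libraries. Per the labels' protocols, total RNA of sorted cells was made into libraries with a stranded TruSeq kit and sequenced on an Element AVITI. The submitters' processing notes list STAR 2.7.10b, featureCounts, FastQC, DESeq2 and build mm39 but no roles. Strand setting and annotation release: not given in the sources used here. Exons of Fcna and Vcam1 overlap an antisense gene, whose own level was at most 2.11 CPM. Total counts were 17333748 to 21409078 in CLP libraries and 15392992 to 25665633 in sham libraries, so that 1 CPM is 15.1 to 27.6 reads. Symbols (52081 of the IDs) and exon lengths came from GENCODE mouse release 21, of an older build.

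The test was edgeR's robust quasi-likelihood F-test (edgeR 4.0.16, R 4.3.3) of CLP against sham on the 14004 genes left by filterByExpr, with TMM scaling, Benjamini-Hochberg adjustment over all tested genes and a threshold of 0.05. SE is the absolute log2 fold change over the square root of F. No library was a copy of another of its group: the lowest chi-square per degree of freedom of a within-group pair was 9.246. That does not show whether the libraries are separate mice. On simulated counts the edgeR step was tested for recovery of known changes. Ratios used counts plus 0.5. Alternatives were library totals, DESeq2 size factors, upper quartile factors, DESeq2 1.42.0, limma-voom (limma 3.58.1), other filters, 1 surrogate variable (sva 3.50.0), a replicate block and each library left out.

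The members and lists were chosen with earlier results of these data known. All 10 members were named, with the closest gene in profile for each, and from 2 further lists the most abundant gene and the largest called change at 5 CPM or more. Python 3.11.15 with matplotlib 3.10.9 drew the figures. Values of some listed genes are not reported here.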

Additional observations from a re-analysis of the deposited data

How the results depend on the processing

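Scaling decided the calls. With library totals 0 members were higher and 2 lower (6 and 0 with TMM), 0 had every CLP library above every sham library and 1 had every one below (5 and 0 with TMM), and over all genes 1286 were higher and 6435 lower (2767 and 3297 with TMM). The direction turned for Adgre4 (-0.065), Mrc1 (-0.18), Treml4 (-0.19), Siglec1 (-0.17) and Fcna (-0.027), which follows from the construction of that scaling, since it lowers all log2 fold changes by a median of 0.32. With 1 surrogate variable estimated from counts 2 members, Adgre1 and Cd5l, were higher, and 3550 genes changed (1590 higher, 1960 lower), the cause of which was not tested. Estimated from CPM, a form added after the data were seen, it left 6 members higher. Leaving out 1 library gave 3 to 6 members higher with TMM, lowest without CLP replicate 1, and 0 lower. With library totals (fits added after the data were seen) it gave 1 to 2 lower, with log2 fold changes of -0.020 to 0.111 for Vcam1, -0.066 to 0.026 for Fcna and -0.0052 to 0.089 for Cd5l. Upper quartile factors called 4 members higher, without Adgre4 (adjusted p = 0.102) and Vcam1 (adjusted p = 0.0542). Adgre1 kept its call in 17 of 18 alternatives, and Cd163 its lower direction in all 18. Same-numbered CLP and sham libraries did not deviate together (correlations -0.192 to 0.261), and the fit with the replicate block called 6 members higher and 0 lower (6089 genes in all). Depth did not limit any member, whose lowest count was 3702.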
